A study of Rattus norvegicus with 8 samples.

Results

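The genes described here encode secreted calcium-binding phosphoproteins that are not enamel matrix proteins. They are the casein Csn10 and the bone and dentin glycoproteins Spp1, Ibsp, Dmp1, Dspp and Mepe. Members were found by gene symbol on the array, and of the 6 symbols 5 had a feature, with 1 probe each, among 22523 array features. Mepe had no feature, by symbol or by gene ID. The genes were chosen by name with their difference between the stages already known, so those differences are given as descriptions, without p-values. Where a gene is said to pass or miss the thresholds of the fit over all features, that too is a description.

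The data were mRNA signals of the enamel organ, the cell layer that lays down and then hardens enamel, from the lower incisors of 4 male Wistar Hannover rats aged 4 weeks. No rat carried an engineered allele or received a treatment. From each rat the secretory-stage and the maturation-stage enamel organ were collected separately and hybridized to RatRef-12 v1 BeadChips, giving 4 arrays per stage. The layer was lifted off freeze-dried incisors after the surrounding bone had been removed, and it contains mostly, not only, enamel organ. In such bulk RNA, fewer cells of a type and less RNA per cell cannot be told apart. For maturation replicates 2, 3 and 4, 1 of the labels gives the secretory stage as source, while title, description and tissue give maturation. All 5 maturation ameloblast markers on the array passed both thresholds and were higher in the arrays labelled maturation, including Klk4 and Slc24a4, and of 4 secretory ameloblast markers Enam and Mmp20 were lower there. Summed deposited signals ran from 11881691 to 12046793 in the secretory arrays and from 13355073 to 16122665 in the maturation arrays.

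Secreted calcium-binding phosphoproteins arose by duplication of an ancestral gene related to Sparc and Sparcl1, and they include the enamel matrix proteins, the caseins of milk, several salivary proteins and the acidic proteins of bone and dentin. Many are phosphorylated on serines by the secretory-pathway kinase Fam20c, and several of the bone and dentin proteins bind integrins through an RGD motif. In teeth they are best known from odontoblasts, the dentin-forming cells, while ameloblasts are known to express Dspp briefly around the onset of enamel formation.

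The 5 measured genes are annotated to chromosome 14 by the array. The 250 bases before the RefSeq start of 4 of them are printed because these genes lie on the same chromosome yet differed in opposite directions between the stages. The windows are read on the minus strand of GRCr8, and they cover chr14:20439831-20440080 for Csn10, now named Csn3, chr14:5619805-5620054 for Spp1, chr14:5757243-5757492 for Ibsp and chr14:5876340-5876589 for Dspp. Capitals mark matches, on either strand, to the 5 short motifs spelled out after the sequences, so that a match on the opposite strand appears as the reverse complement of its letters. The start used for Spp1 is not the end of its annotated gene.
Csn10: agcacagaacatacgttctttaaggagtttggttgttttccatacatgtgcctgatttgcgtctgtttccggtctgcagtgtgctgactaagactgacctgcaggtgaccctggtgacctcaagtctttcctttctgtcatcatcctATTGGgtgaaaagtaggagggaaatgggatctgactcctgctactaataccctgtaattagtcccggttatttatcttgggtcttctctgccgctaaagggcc
Spp1: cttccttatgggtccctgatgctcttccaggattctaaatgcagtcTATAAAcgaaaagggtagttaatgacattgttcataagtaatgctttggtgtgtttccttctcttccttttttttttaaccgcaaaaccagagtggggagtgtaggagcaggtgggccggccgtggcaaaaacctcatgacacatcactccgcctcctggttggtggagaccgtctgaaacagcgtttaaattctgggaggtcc
Ibsp: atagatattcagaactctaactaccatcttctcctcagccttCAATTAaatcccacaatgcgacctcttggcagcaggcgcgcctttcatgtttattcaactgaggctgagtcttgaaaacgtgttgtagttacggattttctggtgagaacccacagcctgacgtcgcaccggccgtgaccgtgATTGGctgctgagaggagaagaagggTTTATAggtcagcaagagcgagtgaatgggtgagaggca
Dspp: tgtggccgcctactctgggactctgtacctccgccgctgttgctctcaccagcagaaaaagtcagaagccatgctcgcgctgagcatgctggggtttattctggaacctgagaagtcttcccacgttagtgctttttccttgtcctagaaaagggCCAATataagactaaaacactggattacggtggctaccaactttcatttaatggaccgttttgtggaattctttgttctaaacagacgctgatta

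The CCAAT box, the core bound by NF-Y, occurred in the windows of Csn10, Ibsp and Dspp, and in 34.0% of 33469 RefSeq windows of the same length. TATAAA, the TATA box, occurred from 39 to 34 bases before the start of Ibsp and from 204 to 199 bases before that of Spp1, against 12.9% of all windows. TAATTG, a homeodomain core, occurred in the window of Ibsp and in 7.31% of all windows. Neither TTCNNNGAA, a STAT core present in 7.67% of all windows, nor TGTGGT, a RUNX core present in 14.5%, was found in the 4 windows. Only these exact letters were searched, so variant spellings of the same sites were not counted. These matches are descriptions of letters and not of binding. No motif as spelled here was shared by the 3 genes with higher signal in maturation and absent from the 1 gene with lower signal.

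Signals were background-corrected, quantile-normalized and put on the log2 scale. An array feature was detected when its signal exceeded negative controls at a detection p below 0.05, and it was called when its adjusted p was below 0.05 and its fold change at least 1.8. Of the 22523 features 1745 were called, which is 7.75%, with 1035 higher in maturation (4.60%) and 710 lower (3.15%). With median scaling in place of quantile normalization 77.6% of the calls were higher, against 59.3%. Of the 5 measured genes 4 passed both thresholds, 3 of them higher and 1 lower in maturation. The stages did not overlap in the same 4 genes, against 27.7% of all features. Since the genes were chosen by this contrast, nothing is read from these shares.

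Csn10, the rat kappa-casein gene, encodes the casein that keeps milk micelles in suspension. Its normalized log2 signals were 13.16, 12.78, 12.81 and 13.18 in maturation replicates 1 to 4, and 4.44, 4.73, 4.53 and 5.25 in secretory replicates 1 to 4. All maturation arrays were high and all secretory arrays were near background, with no overlap. On the secretory arrays the probe was detected only in replicate 4, with a detection p of 0.0291. The difference was 8.24 ± 0.18 (SE, n = 4 rats per stage) on the log2 scale, a fitted value that rests on the background correction and on a secretory signal not above background on 3 of 4 arrays, so no fold is given for it. The deposited signals, with no background taken off, were 7164 to 11149 in maturation and 96.7 to 121 in the secretory stage, a ratio of means of 85.5. Within single rats the log2 difference was 7.93 to 8.72, with the same limit.

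The other caseins and the salivary members of the family were mostly undetected. Of 11 milk and saliva genes on the array, none was called, and 8 were detected on no array. These 8 were the caseins Csn1s1, Csn1s2a and Csn1s2b, the milk whey genes Lalba and Wap, and the salivary genes Smr3a, Smr3b and Prp15. The casein Csn2 and Fdcsp, which is secreted by follicular dendritic cells, were each detected on 1 maturation array. Oprpn, a salivary gene, was detected on all 8 arrays, at 5.72 ± 0.11 in maturation and 5.88 ± 0.17 in the secretory stage (SD, n = 4), with a log2 difference of -0.17 ± 0.09 (SE) and an adjusted p of 0.259.

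Across the 8 arrays the probes most like Csn10 were those of Klk4 and Car6. The 2 probes of Klk4, the maturation-stage enamel protease, had Pearson correlations of 0.999 and 0.998, and that of Car6, a secreted carbonic anhydrase, 0.999, among 11233 probes detected on at least 4 arrays. The arrays share the stage difference, so these values describe a common step between stages. Secretory replicate 4 had the highest Csn10 signal of its stage. There the brighter Klk4 probe was at 6.48 against 5.14 to 5.74 on the others, and Car6 at 5.78 against 5.23 to 5.35. The other Klk4 probe was detected on no secretory array. The summed linear signal of the 5 maturation ameloblast markers was 438 on secretory replicate 4 and 306 to 353 on the others of its stage. The part of these markers in the secretory signal of Csn10 was not tested.

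Spp1, or osteopontin, is an acidic RGD protein that binds mineral and integrins and is made by bone cells, macrophages and many epithelia. Its log2 signals were 14.05, 13.87, 14.09 and 14.03 in maturation replicates 1 to 4 and 9.78, 10.69, 10.07 and 11.01 in secretory replicates 1 to 4. The stages did not overlap, and the probe was detected on all 8 arrays. The difference was 3.62 ± 0.23 (SE), a fold of 12.3, and it was 3.02 to 4.27 within single rats. The deposited signals were 15786 to 19852 in maturation and 794 to 1758 in the secretory stage.

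The maturation arrays hardly differed in Spp1, with an SD of 0.10 at the 28.2 percentile of probes detected there, while the secretory arrays had an SD of 0.56 at the 99.3 percentile. The secretory signals of Spp1 spanned 2.35-fold, with replicates 2 and 4 above replicates 1 and 3. The probes most like Spp1 were Clec7a, a phagocyte receptor (r = 0.998), Gyg1, which primes glycogen (0.996), and Neu1, a lysosomal sialidase (0.996). Clec7a was detected on 2 of 4 secretory arrays, with means of 6.83 in maturation and 4.94 in the secretory stage, and no fold is given. The log2 differences, maturation minus secretory, of Gyg1 and Neu1 were 0.52 ± 0.06 and 1.57 ± 0.09 (SE), given without a test because likeness over these arrays follows the stage contrast.

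Some macrophage and osteoclast markers were also higher in maturation. Of 14 macrophage and leukocyte markers 8 were called, all higher in maturation, with 5 called without background correction and 6 to 11 with 1 array left out, and their summed linear signal was 12103 to 15369 in maturation against 4976 to 6125 in the secretory stage. The 2 most abundant were Aif1, at 11.7 in maturation and 10.9 in the secretory stage on the log2 scale and below the fold threshold, and Lcp1, higher by 1.60 ± 0.13 (adjusted p = 1.6e-05). Of 7 osteoclast markers 4 were called, all higher in maturation, with a summed signal of 15075 to 19401 against 6023 to 8583. Ctsk, the main collagen-degrading protease of osteoclasts, was higher by 1.13 ± 0.12 on the log2 scale and Mmp9, a gelatinase, was 7.99-fold higher (adjusted p = 7.9e-05 and 2.8e-05). Calcr and Tnfrsf11a, receptors for calcitonin and for the osteoclast differentiation factor, were detected on no array. The part of these cells in the Spp1 difference was not tested.

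Ibsp, bone sialoprotein, is an RGD protein of newly mineralizing bone and cementum that nucleates hydroxyapatite. Its log2 signals were 9.02, 8.44, 8.82 and 8.72 in maturation replicates 1 to 4 and 6.38, 6.97, 6.92 and 6.93 in secretory replicates 1 to 4. The stages did not overlap, and secretory replicate 1 lay below the other arrays of its stage. The difference was 1.95 ± 0.16 (SE), a fold of 3.86, and it was 1.48 to 2.64 within single rats. Deposited signals were low, at 512 to 782 in maturation and 155 to 194 in the secretory stage.

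The probes most like Ibsp were Cadm3, a cell adhesion molecule (r = 0.995), Gsap (0.995) and Atp6v0d2, a subunit of the osteoclast proton pump (0.995). The log2 difference of Atp6v0d2 was 2.88 ± 0.25 (SE), and like Ibsp it was lowest on secretory replicate 1. Of 16 odontoblast and osteoblast markers none was called higher and 3 were called lower. Their summed linear signal was 71648 to 94073 in the secretory stage, lowest on replicate 1 as Ibsp was, and 93437 to 95797 in maturation, and the part of such cells in the Ibsp difference was not tested. Among the 2 most abundant, Col1a2, a chain of type I collagen, was at 14.7 in maturation and 14.5 in the secretory stage, and Lum, lumican, was at 14.3 and 13.8, below the fold threshold. Sp7, the osteoblast transcription factor, and Sost, which marks osteocytes, were detected on no array.

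**Figure D1:**
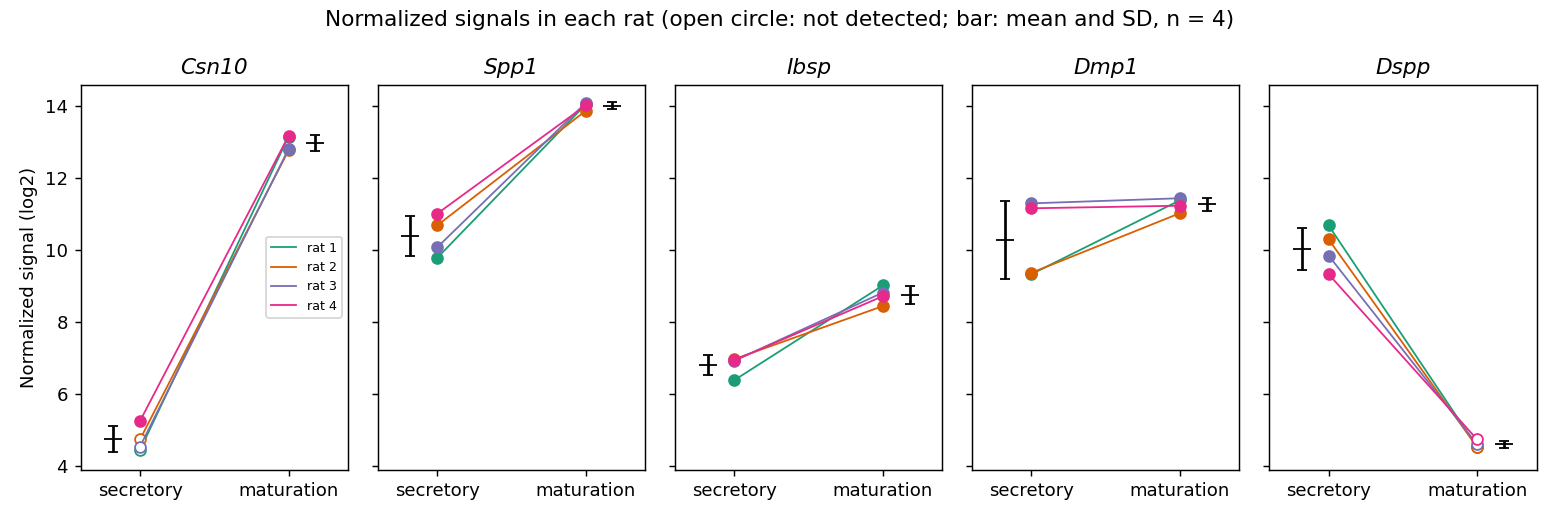
Normalized log2 signal (y axis) of each measured gene in the secretory and maturation stage, with a line joining the samples of 1 rat, open circles for undetected probes, and black bars for the mean and SD of 4 arrays. Csn10, Spp1 and Ibsp were higher in maturation in all 4 rats and Dspp lower, while Dmp1 was close to level in rats 3 and 4.

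Dmp1, dentin matrix protein 1, is made by odontoblasts and by osteocytes and takes part in mineralization and phosphate balance. Its log2 signals were 11.39, 11.03, 11.44 and 11.23 in maturation replicates 1 to 4 and 9.33, 9.37, 11.30 and 11.16 in secretory replicates 1 to 4. The stages overlapped, because secretory replicates 3 and 4 were at the level of the maturation arrays and replicates 1 and 2 were below it. The difference between means was 0.98 ± 0.45 (SE), a fold of 1.98, and Dmp1 was not called. Within rats 1 and 2 maturation was 4.16-fold and 3.16-fold higher, and within rats 3 and 4 it was 1.10-fold and 1.05-fold higher. Without secretory replicate 3 the difference became 1.32 and Dmp1 was called, and with another array left out it was as low as 0.66.

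The secretory SD of Dmp1, 1.09, was at the 99.9 percentile of 9540 probes detected on all secretory arrays. The maturation SD, 0.19, was at the 71.0 percentile. The deposited signals were 596 and 641 in secretory replicates 1 and 2 and 2260 and 1955 in replicates 3 and 4, so the spread was present before normalization.

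Of the 16 odontoblast and osteoblast markers, 3 that varied widely among the secretory arrays are given with values, picked after these had been seen. Ifitm5, a membrane protein of mineralizing osteoblasts, was at 4.41, 4.49, 6.21 and 6.49 in secretory replicates 1 to 4. Of these arrays it was detected only in replicates 3 and 4. Phex, a bone and tooth peptidase, was at 5.14, 5.39, 6.02 and 6.61. Bglap, or osteocalcin, was at 11.11, 13.03, 13.73 and 13.98, lowest in replicate 1. The SD of Bglap was at the 99.96 percentile and that of Phex at the 99.6 percentile of the same probes. In maturation Bglap stayed between 12.74 and 12.90. Other genes of the list did not follow Dmp1, such as Omd, osteomodulin, at 9.34, 8.81, 9.08 and 9.22 and Col1a1, a chain of type I collagen, at 12.10, 12.58, 12.52 and 12.17 in secretory replicates 1 to 4.

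The summed linear signal of the whole odontoblast and osteoblast list, which holds these 3 genes, was 71648, 86657, 94073 and 91612 in secretory replicates 1 to 4 and 93437 to 95797 in maturation. The order of the secretory replicates in this sum was that of Dmp1. Without Bglap, a sum chosen after seeing the data, the other 15 genes gave 69435, 78298, 80479 and 75498, with replicate 2 above replicate 4. The part of bone or dentin cells in the Dmp1 spread was not tested. The probes most like Dmp1 over the 8 arrays were Lims1, an adaptor of integrin adhesions (r = 0.937), Dnajc15, a mitochondrial co-chaperone (0.928), and Aars1, an alanyl-tRNA synthetase (0.924), lower correlations than those found for the other 4 genes, and none of the 3 was called.

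**Figure D2:**
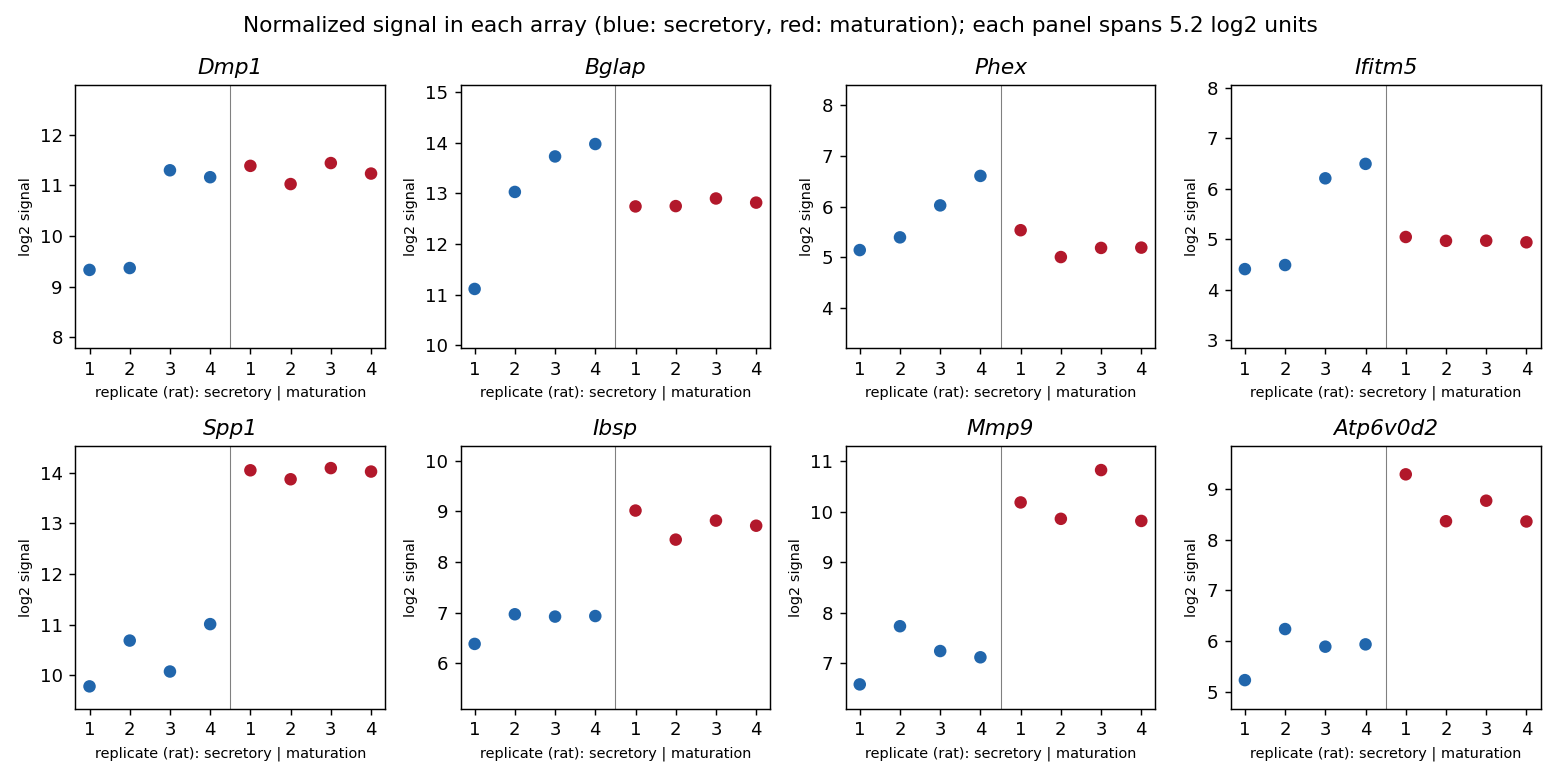
Normalized log2 signal (y axis, the same span in every panel) of Dmp1, 3 bone genes, Spp1, Ibsp and 2 osteoclast genes in secretory (blue) and maturation (red) replicates 1 to 4. Dmp1 and Ifitm5 were high in secretory replicates 3 and 4, whereas Spp1, Ibsp, Mmp9 and Atp6v0d2 were separated by stage. In maturation Dmp1 was near the level of those 2 replicates and Ifitm5 was below it.

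Dspp encodes dentin sialophosphoprotein, the precursor of the most abundant non-collagenous proteins of dentin. Its log2 signals were 4.52, 4.52, 4.60 and 4.73 in maturation replicates 1 to 4 and 10.68, 10.30, 9.85 and 9.33 in secretory replicates 1 to 4. It was detected on all secretory arrays and on no maturation array, where the detection p was 0.158 to 0.493. Dspp was at least 34.0-fold lower in maturation, a bound taken from the lowest normalized signal of any detected probe on each maturation array after background correction. The bound rests on that correction, since the fitted log2 difference was -5.45 as analysed, -4.23 with an offset of 50 and -3.40 with no background taken off, and the deposited means had a ratio of 0.111, maturation over secretory. Measured means were 4.59 ± 0.10 in maturation and 10.04 ± 0.58 in the secretory stage (SD, n = 4). Deposited signals were 109 to 120 and 585 to 1425.

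The secretory arrays spanned 2.56-fold in Dspp, with an SD at the 99.4 percentile. The array with the lowest secretory Dspp, replicate 4, was among the 2 with high Dmp1, and the 2 arrays with low Dmp1 had the highest Dspp. Of the 16 odontoblast and osteoblast markers 3 were called lower, none was called higher and 13 were not called, among them Lum, Sparc, Alpl and Col1a2 with log2 differences of 0.54, 0.38, 0.30 and 0.21. Col11a2 and Nes, picked from this list after their values were seen, were 3.34-fold and 2.48-fold lower in maturation, with log2 differences of -1.74 ± 0.14 and -1.31 ± 0.13 (SE; adjusted p = 1.4e-05 and 4.6e-05). Enam, the secretory enamel protein, was at 9.08, 5.17, 5.53 and 8.22 in maturation replicates 1 to 4, and at 11.94 to 12.03 in the secretory stage. Dspp was undetected on all 4 maturation arrays. The part of odontoblasts or of secretory ameloblasts in the Dspp difference was not tested.

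The probes most like Dspp were Ly6d, a surface protein of epithelia, Lsamp, a neural adhesion molecule, and Slc22a7, an organic anion transporter, each with a correlation of 0.998. Ly6d and Lsamp were at least 25.2-fold and 3.93-fold lower in maturation, where neither was detected. Slc22a7 was detected on 1 of 4 maturation arrays, with means of 4.86 in maturation and 7.37 in the secretory stage, and no fold is given. Of the 15 nearest probes of the 5 genes 7 to 10 were the same under another background correction, offset, normalization or detection filter.

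Genes next to these on the chromosome differed in direction and size. In RefSeq order Spp1, Mepe, Ibsp, Dmp1, Dspp and Sparcl1 follow each other, and this order was chosen after the array had been read. Sparcl1, an extracellular matrix protein next to Dspp, was higher in maturation by 1.37 ± 0.10 (adjusted p = 8.0e-06), the opposite direction to Dspp. Abcg3l1, on the other side of the cluster, differed by 0.08 ± 0.09, and Nudt9 by -0.28. Around Csn3, 18 of 23 listed genes had a feature. Enam was called lower, at -4.98 ± 0.79 (adjusted p = 0.00098), and the nearest measured neighbours Cabs1 and Fdcsp were not called.

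**Figure D3:**
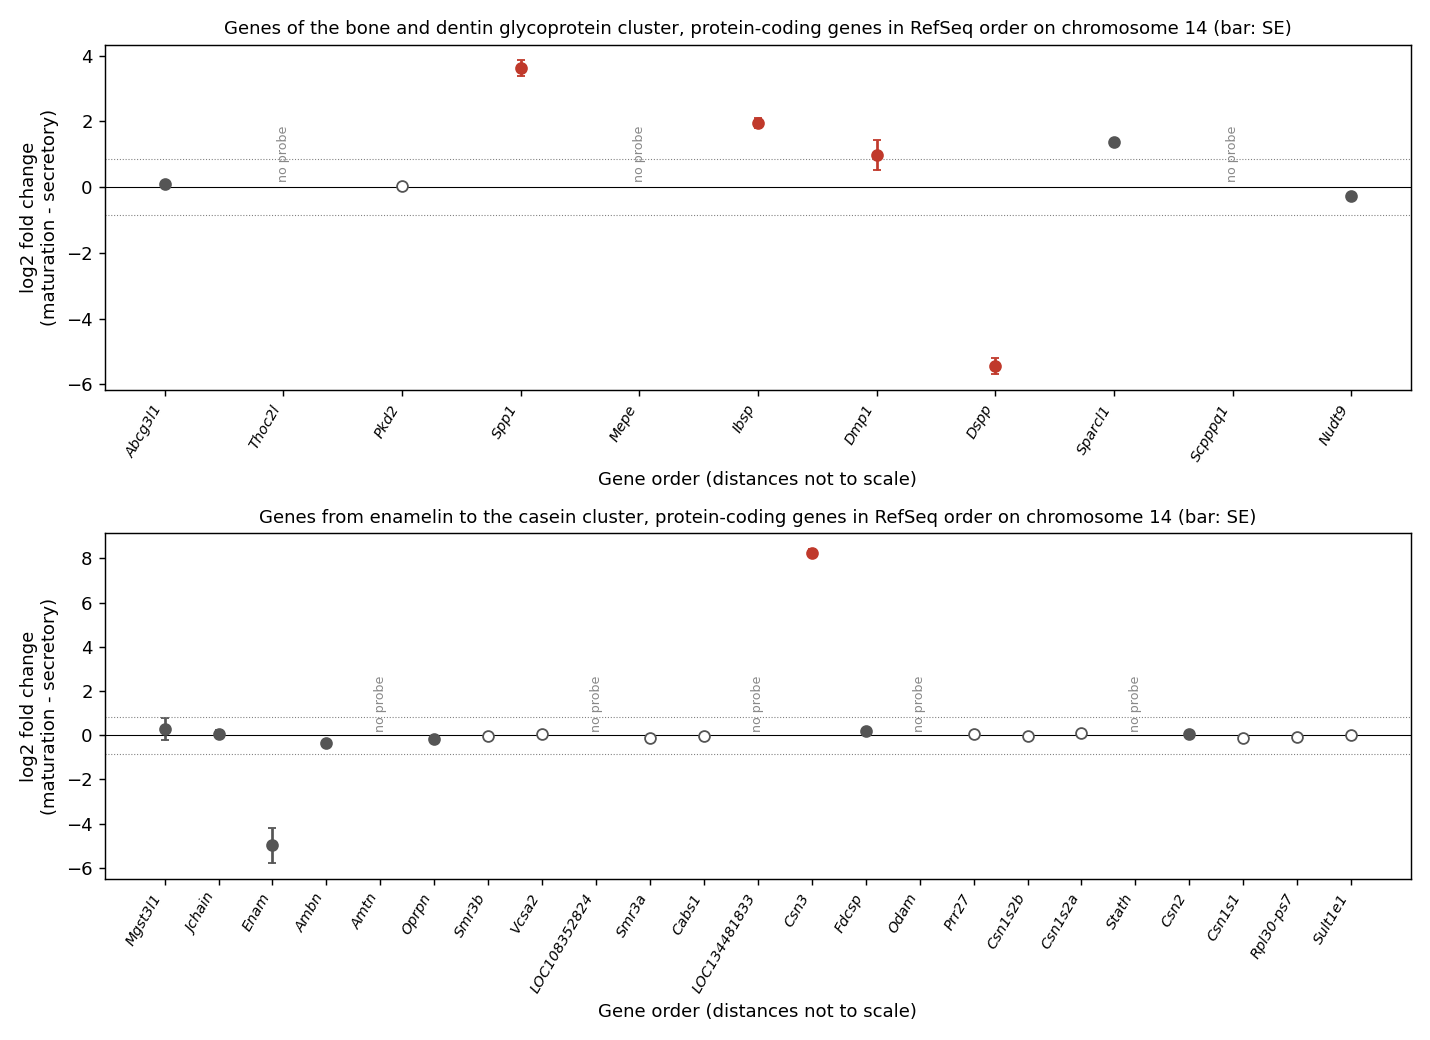
Log2 fold change, maturation minus secretory, with its SE (y axis) for genes in RefSeq order along chromosome 14 (x axis, not to scale), with the described genes in red, open circles for probes detected on no array and dotted lines at a fold of 1.8. Dspp lies below 0 between Dmp1 and Sparcl1, which lie above it, and Csn3 stands at 8.24 in a row where Enam lies at -4.98 and no other plotted gene was called.

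Related genes were taken from lists of enamel proteins, milk and saliva proteins, processing enzymes, mineral regulators, receptors and transcription factors. Of 80 such genes on the array 7 were called higher and 9 lower, which is 20% against 7.75% of all features. These lists were chosen with earlier results known, so nothing is read from this share. Of the 3 enamel matrix genes on the array, Amelx, Ambn and Enam, only Enam was called. Sparcl1, called higher, and Sparc, related to the ancestor of the family, were in the same list of 5. Amelx, amelogenin, differed by -0.53 ± 0.18 on the log2 scale (adjusted p = 0.0555), and Ambn, ameloblastin, by -0.36 ± 0.11 (adjusted p = 0.0353, below the fold threshold). Sparc, a collagen-binding matrix protein, differed by 0.38 ± 0.07 (adjusted p = 0.0023) and was also below the fold threshold.

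Of 19 processing genes, 5 were called higher and 4 were called lower in maturation. Klk4 was higher by 7.57 ± 0.24 on the log2 scale and Mmp20, the secretory enamel protease, was 16.3-fold lower, at -4.03 ± 0.25 (adjusted p = 4.8e-08 and 2.6e-06). Fam20a, the partner of Fam20c, was 3.48-fold lower, and Fam20c, named after its value was seen, was 2.51-fold lower (adjusted p = 6.6e-06 and 2.8e-06). Ctsb, a lysosomal protease with the highest mean signal of the list, was at 14.02 in maturation and 13.57 in the secretory stage and was not called.

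Of 12 mineral regulators 1 was called. Enpp1, which makes the mineralization inhibitor pyrophosphate, was higher by 2.08 ± 0.12 (adjusted p = 1.4e-06), while Slc20a2, a phosphate transporter, was at 13.01 and 13.18 in maturation and secretory arrays. Of 9 receptors 1 was called. Itgb6, the epithelial integrin subunit, was 3.02-fold lower, at -1.59 ± 0.12 on the log2 scale (adjusted p = 1.1e-05), and Itgb1, the most abundant of the list, differed by 0.43 ± 0.10, below the fold threshold. Of 24 regulators 3 were called, all lower. Dlx5, a homeodomain factor of bone and teeth, was 2.99-fold lower, and Klf4, an epithelial factor, was 2.52-fold lower (adjusted p = 4.3e-07 and 2.5e-06).

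The remaining marker lists were those of fibroblasts and mesenchyme and of endothelium. Of 10 fibroblast and mesenchyme markers 2 were called, both higher, and Col3a1 and Col6a3, collagen genes with the highest signals of that list, were not. Of 7 endothelial markers Vwf was called, higher by 0.88 ± 0.18 (adjusted p = 0.0046), Emcn was not, and Cdh5 was detected on no array. No endothelial marker was called without background correction or without maturation replicate 3, secretory replicate 1 or secretory replicate 4. Over all marker lists, 25 of 63 genes were called, 20 of them higher in maturation, or 39.7% against 7.75% of all features. Of the 63 genes 5 were detected on no array, against 9011 of the 22523 features. The marker lists include stage markers of ameloblasts and were chosen with earlier results known, so nothing is read from this share.

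**Figure D4:**
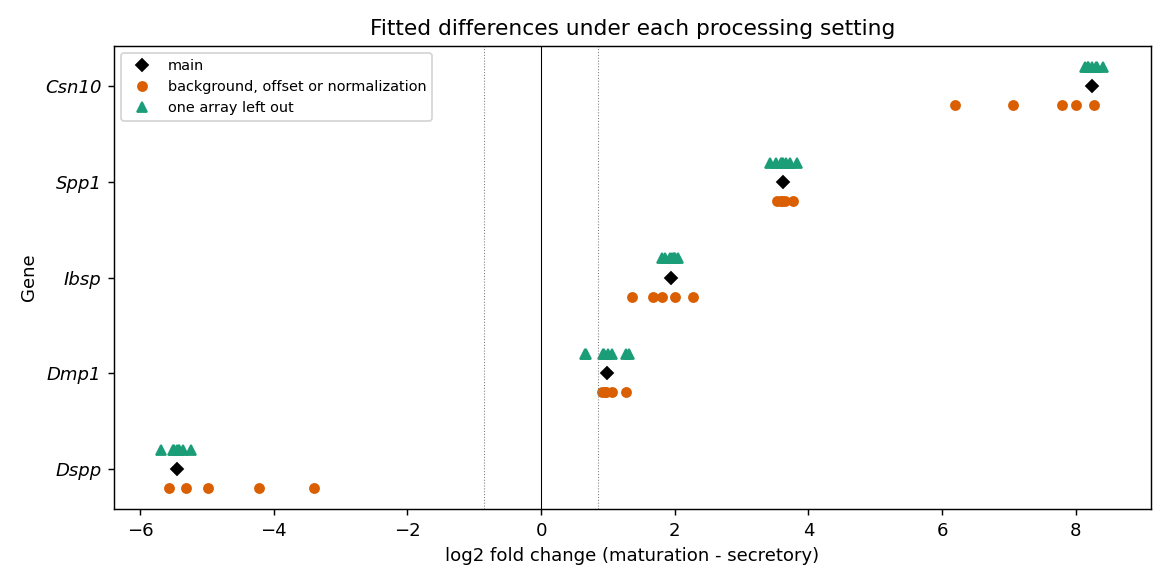
Fitted log2 difference, maturation minus secretory (x axis), of each measured gene (y axis) as analysed (diamonds), under another background correction, offset or normalization (circles) and with 1 array left out (triangles), with dotted lines at a fold of 1.8. The sign was the same under all settings shown, and Dmp1 ran from 0.66 to 1.32 across the line.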

How the data were processed

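Both stages of the enamel organ of 4 rats were profiled as total RNA on 8 arrays, 4 per stage. Mean bead signals were deposited by the authors as intensity, with neither background correction nor normalization between arrays, next to a detection p-value, a bead number and a bead standard error for each; the software and genome build are not given in the sources used here. Stage and replicate come from titles and tissue labels. Each array had 10667 to 11450 detected probes, and the 5 genes rested on 28 to 60 beads per array, with bead errors of 2.04 to 5.43% of the signal. The number of arrays limits the precision.

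Processing used neqc of limma 3.58.1 in R 4.3.3. Its background came from negative controls that were inferred by detection p-value, its offset was 16, and quantile normalization preceded the log2 step. lmFit and eBayes were run on all 22523 probes, with Benjamini-Hochberg adjustment. The steps were tested on simulated data. Stages were compared unpaired. Same-rat samples, which come from 1 animal, deviated together (r = 0.129 to 0.234 over 11233 probes, against -0.0755 to -0.0416 with other rats), and a fit blocking on rat was 1 of the alternatives. Others were no background correction, normexp that ignores negative controls, median scaling, cyclic loess, an offset of 50, a detection filter, an adjusted p below 0.01, the methods' t-test and leaving out each array.

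The members and the lists were chosen with earlier results of these data known. Named genes are all members, every enamel, milk and saliva gene on the array, in the other lists up to 4 called genes with the largest change and the 1 with the highest signal, in marker lists the 2 highest and any marker detected on no array, and the 3 probes most like each member. Bglap, Phex, Ifitm5, Omd, Col1a1, Alpl, Fam20c, Col11a2, Nes and the neighbours fall outside this rule and were named after their values were seen. A gene with several probes is given by its brightest probe. Current symbols came by gene ID from RefSeq GRCr8, which matched 17430 features. Protein sequences were not analysed here. The values of 1 gene that the rule names are not reported here.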

Additional observations from a re-analysis of the deposited data

Results flagged for a closer look

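Of 35 groups of 4 arrays examined for a sample far from the others, 2 had one, against 1.75 expected by chance. Ibsp on secretory replicate 1 was 6.38 on the log2 scale, and the other 3 secretory arrays lay between 6.92 and 6.97. The summed linear signal of the processing genes on secretory replicate 2 was 28257, and the other 3 lay between 26739 and 26928.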

How the results depend on the processing

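Csn10, Spp1 and Ibsp were higher and Dspp lower in maturation under the 14 alternatives that were run for their log2 differences, with log2 differences of 6.19 to 8.41, 3.42 to 3.83, 1.36 to 2.27 and -5.68 to -3.40, and Dmp1 ran from 0.66 to 1.32. Without background correction Csn10 fell to 6.19, Dspp to -3.40 and Ibsp to 1.36, since background then stays in the low signals. With the rat as a block, which uses the pairing, 1750 probes, 4 members, 16 genes of the related lists and 25 markers were called, which changed no call of a member. Median scaling gave 2 mineral and 2 endothelial calls in place of 1 each. Without background correction 1 fibroblast marker was called in place of 2, and 927 probes were called in place of 1745. Leaving out 1 array gave 1714 to 1820 probes, 4 to 5 members, 15 to 17 genes of the related lists and 22 to 28 markers; the count of 5 came without secretory replicate 3. Of the 15 probes most like a member, 8 were the same with normexp, 8 without background correction, 7 with median scaling and 9 with the detection filter, and the cause was not tested. Csn10 in the secretory stage and Dspp in maturation lie near background, which limits how large their folds can be read.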

Other observations

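Msx1, a homeodomain factor of tooth and bone mesenchyme, was detected only on the 2 arrays of rat 1, at 6.87 on the maturation array and 6.88 on the secretory array on the log2 scale. It was named after its values were seen.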
